A study of Homo sapiens with 8 samples.

Results

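Red cell genes were followed across 3 comparisons of K-562 cells, a human leukaemia line that keeps an immature erythroid character and makes embryonic and fetal haemoglobin. The set holds 40 genes, chosen by symbol, of the erythroid lineage and its globins. Of these, 8 appear in at least 1 of the authors' deposited gene tables, which together list 1221 distinct genes. All groups are K-562 cells grown in RPMI-1640 with serum, and each group has 2 libraries of ribosomal RNA-depleted total RNA (8 libraries in 4 groups). The controls are parental wild-type cells given a negative sgRNA. The altered groups are TASOR knockout cells, TASOR knockout cells expressing a FLAG-TASOR transgene, and parental wild-type cells expressing a FLAG-TASOR2 transgene. The protocols describe clones from single GFP-sorted cells after CRISPR/Cas9 transfection, and lentivirus carrying either an empty puromycin resistance vector or the transgene. Labels for the FLAG-TASOR2 cells name no guide, so guide treatment and transgene cannot be told apart in that comparison. The sources used here do not say how many clones stand behind a group. The p-values measure only a spread between libraries, as the authors' test estimated it, which may be technical.

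Haemoglobin is a tetramer of alpha-like and beta-like chains, whose genes lie in separate clusters and are switched in order from embryonic to fetal to adult forms. HBZ is the embryonic and HBA1 and HBA2 the fetal and adult alpha-like genes, and HBE1 is the embryonic, HBG1 and HBG2 the fetal and HBB and HBD the adult beta-like genes. GATA1, TAL1, KLF1 and NFE2 are the transcription factors that drive these genes together with those of heme synthesis and the red cell membrane. TASOR belongs to the human silencing hub (HUSH), which represses LINE-1 elements, and TASOR2 is its paralog.

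The authors' deposited tables are filtered. They hold only genes that changed by more than 1 on the log2 scale in either direction, with a log2 mean expression (in CPM, read counts scaled to library size) above 1 and an unadjusted p below 0.05. A member is called listed where it met all of these, and rose or fell would require an adjusted p below 0.05. No listed member reached that (0 of the 9 listings, all at an unadjusted p below 0.05 in the authors' edgeR-type F-test). Among all listed genes, 1 reached it for the knockout and 5 for FLAG-TASOR2. These make up 0.00715% of 13992 and 0.0357% of 14001 genes tested. For FLAG-TASOR it was 0% of the 261 listed. A gene that reached it but missed another threshold would not be seen, so these counts and shares are lower bounds. The tables give no value per library, so overlap between groups and depth are unknown. The 32 members not listed have no value here, which does not show that they were unchanged. Standard errors (SE) and 95% intervals are approximations derived from the authors' F score. Adjusted p-values are the authors', from an edgeR-type F-test adjusted over all genes tested.

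The altered genes were in their tables in the labelled direction. For the knockout, the authors' deposited table gave TASOR a log2 fold change of -1.08 (SE 0.23, adjusted p 1.00). For FLAG-TASOR2, the authors' deposited table gave TASOR2 one of 2.26 (SE 0.27, adjusted p 0.125). Neither was listed with FLAG-TASOR.

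In wild-type cells with FLAG-TASOR2, 6 of the 40 members (15%) were listed, all as higher. They are 3 alpha-like globin genes (HBZ, HBA2, HBA1), the adult beta-globin gene HBB, the anion exchanger gene SLC4A1 and HEMGN, which encodes the nuclear protein hemogen of blood progenitors. Over all genes tested, 2.56% were listed as higher and 3.76% as lower, and 40.5% of the 884 listed genes were higher. How many of the 40 members the authors tested is unknown, and a member of high expression passes the expression threshold more easily than an average gene. The members were also chosen with earlier results of these data known. Their share and shared direction therefore cannot be tested against those over all genes. The median log2 fold change of the 6 was 1.66 in the authors' deposited table, beside 1.83 over all genes listed as higher, so the median of the 6 was not the larger one. Their median log2 mean expression was 8.46, beside 3.05 over all 884 genes.

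**Figure D1:**
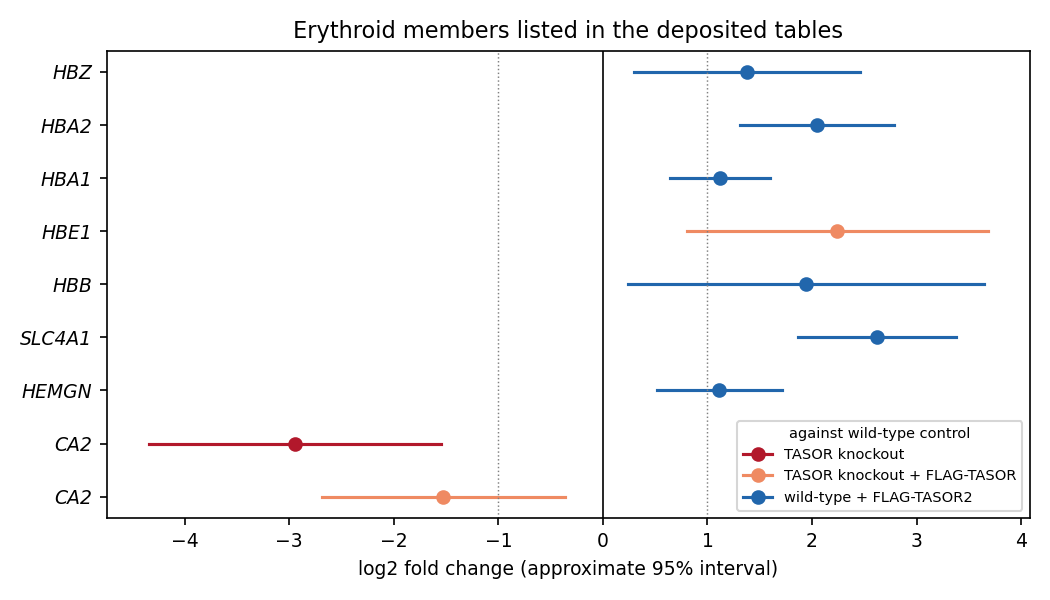
Points give the log2 fold change (x axis) of each listed member against wild-type control in the authors' deposited tables, coloured by comparison, and lines the approximate 95% interval. Dotted lines mark the listing threshold of 1 in either direction. The 6 FLAG-TASOR2 points lie between 1.11 and 2.62, and CA2 is the member with values below 0.

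The alpha-like globins took 3 of the 6 places. For HBA2 (chromosome 16, 172876 to 173710, hg38), the authors' deposited table gave a log2 fold change of 2.04 (SE 0.30, 95% interval 1.31 to 2.78, adjusted p 0.125), a 4.12-fold higher level. HBA1 (176680 to 177522) starts 3804 bases further along and encodes the same protein. It had a smaller log2 fold change, 1.12 in the authors' deposited table (SE 0.20, interval 0.64 to 1.60, adjusted p 0.166). The 2 intervals overlap, and no test of the difference can be made without values per library. HBZ (152687 to 154503) lay between these, at 1.38 (log2) in the authors' deposited table (SE 0.44, interval 0.30 to 2.46, adjusted p 0.307). HBM and HBQ1, minor alpha-like genes between and beyond these, were not listed.

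Group levels can be approximated from the deposited fold change and mean, if the mean is read as the average of both groups. On this scale HBA2 stood at about 284 CPM in control cells and 1171 CPM with FLAG-TASOR2. HBA1 stood at about 718 and 1560 CPM, and HBZ at about 383 and 998 CPM. Since HBA1 and HBA2 are near-identical copies, the authors' counting may have split or dropped reads that fit both, and their separate values are uncertain. The sum of the pair went from about 1002 to 2731 CPM, 2.73-fold higher (log2 1.45), and HBA2 made up 28.3% of it in controls and 42.9% with FLAG-TASOR2. How shared reads were counted, split or discarded, is unknown, and its effect on the sum and these shares was not tested. With HBZ added, the sum went from about 1385 to 3729 CPM, 2.69-fold higher.

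**Figure D2:**
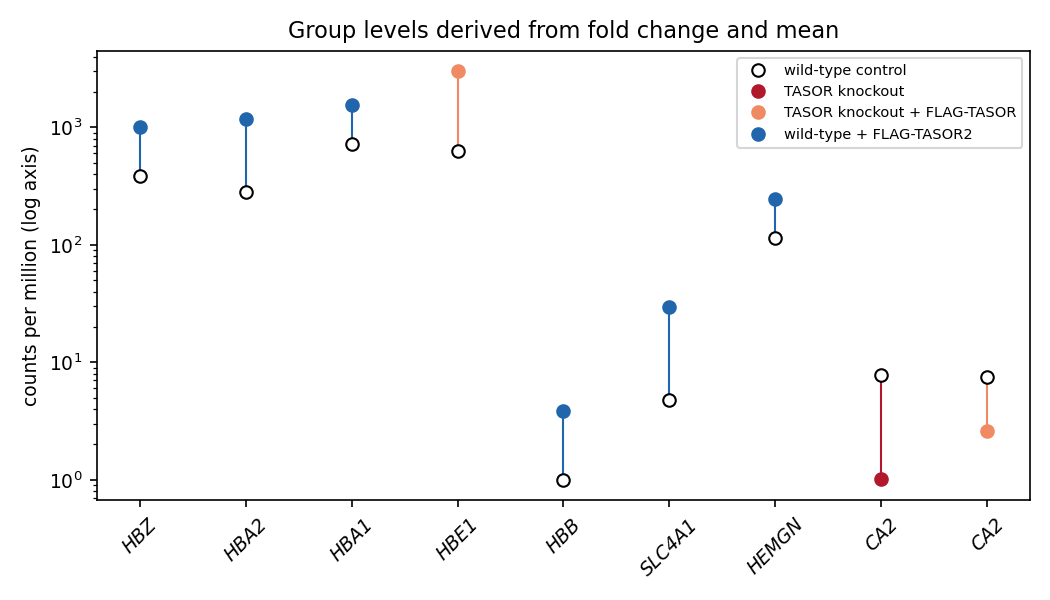
Open circles give the approximate level in wild-type controls and filled circles that in the altered group, in CPM on a log axis, for each listing of a member. The 3 alpha-like genes and HBE1 stand at 284 to 718 CPM in controls, SLC4A1, HBB and CA2 below 8.

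Among the beta-like globins, HBB was the 1 gene listed with FLAG-TASOR2. For HBB (chromosome 11, 5225464 to 5229395), the authors' deposited table gave a log2 fold change of 1.94 with a wide error (SE 0.70, interval 0.24 to 3.64, adjusted p 0.356). It had a log2 mean expression of 1.27 there, rank 828 of 884 by mean, with approximate levels of 1.00 CPM in controls and 3.83 CPM with FLAG-TASOR2. Per kilobase of annotated exon, HBB came to about 2.94 CPM with FLAG-TASOR2, beside 1869 for HBA1, 1416 for HBA2 and 1321 for HBZ. HBB was thus listed from a far lower level than the alpha-like genes. Its approximate control level alone lies below the log2 mean expression threshold of 1. HBB met that threshold only through the FLAG-TASOR2 group, where it is higher. The fetal genes HBG1 and HBG2, and HBD and HBE1, were not in this table.

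SLC4A1 encodes band 3, the chloride-bicarbonate exchanger that anchors the red cell skeleton. It lies on chromosome 17 (44248385 to 44268141) and had the largest log2 fold change of the 6, at 2.62 in the authors' deposited table (SE 0.31, interval 1.87 to 3.38, adjusted p 0.117). That is a 6.16-fold higher level, from about 4.81 to 29.6 CPM, and by p it ranked 17 of 884. Of the 10 membrane and skeleton members, SLC4A1 alone was listed. Its partners in the band 3 complex (ANK1, which encodes ankyrin, EPB42, which encodes protein 4.2, RHAG, RHCE and RHD) and the skeleton genes SPTB and EPB41 were not. The glycophorin genes GYPB and GYPE were also not listed.

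HEMGN (chromosome 9, 97926791 to 97944856) was just past the listing threshold, at 1.11 (log2) in the authors' deposited table (SE 0.24, interval 0.52 to 1.71, adjusted p 0.201). Its approximate level went from 113 to 245 CPM, 2.16-fold higher. It was 1 of 5 transcription factors and nuclear proteins in the set. The other members of that kind, GATA1, TAL1, KLF1 and NFE2, were in none of the 3 tables.

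**Figure D3:**
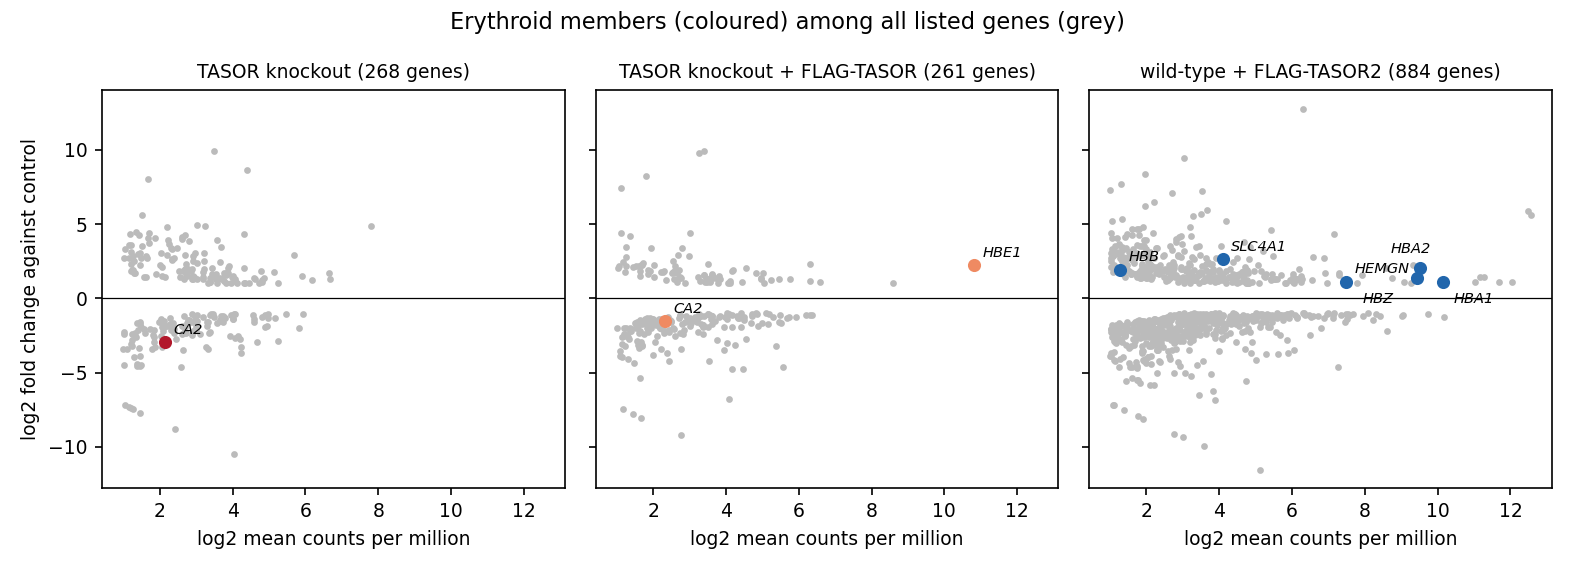
Each point is a listed gene, by log2 mean CPM (x axis) and log2 fold change against control (y axis), with members coloured and labelled and all other listed genes in grey, 1 panel per comparison. HBE1 is the gene of highest mean in the FLAG-TASOR panel, and HBA1, HBA2 and HBZ rank 9, 11 and 12 of 884 by mean in the FLAG-TASOR2 panel.

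HEMGN is also the listed member for which a RefSeq promoter window was used (1 of 8 listed members, and 25 of all 40). It has 2 annotated starts, and both windows (GRCh38.p14, minus strand, from 250 bases before to 50 after the start) are shown because GATA factors bind the letters AGATAA or TGATAA in erythroid promoters. Capitals mark these letters on either strand. The window of the upstream start lies at chr9:97944803-97945102 and that of the downstream start at chr9:97938123-97938422.

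HEMGN upstream start: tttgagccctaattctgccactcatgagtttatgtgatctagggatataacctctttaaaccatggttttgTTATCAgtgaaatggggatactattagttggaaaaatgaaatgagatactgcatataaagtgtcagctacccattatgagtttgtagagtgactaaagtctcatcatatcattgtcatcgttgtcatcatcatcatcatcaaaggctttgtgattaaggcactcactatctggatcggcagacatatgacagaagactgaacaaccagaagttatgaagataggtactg

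HEMGN downstream start: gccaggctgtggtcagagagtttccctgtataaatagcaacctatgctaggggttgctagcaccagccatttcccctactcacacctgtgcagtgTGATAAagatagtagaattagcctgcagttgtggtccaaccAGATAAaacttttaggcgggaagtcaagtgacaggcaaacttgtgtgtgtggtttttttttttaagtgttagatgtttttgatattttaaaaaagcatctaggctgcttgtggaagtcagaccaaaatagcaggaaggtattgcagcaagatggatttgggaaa

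The upstream window holds 1 match, on the opposite strand at -179 from the start, and the downstream window holds 2, at -155 and -114. AGATAA or TGATAA occurred in 22 of the 39 windows of members (56.4%) and in 16.3% of all 35116 promoter windows of the same length. CCNCNCCC, a KLF-type CACCC motif, occurred in 69.2% of member windows and 56.2% of all windows, and TGAGTCA or TGACTCA, the core of the NFE2 motif, in 7.69% and 4.95%, both strands searched. The CACCC and NFE2 letters were not in the HEMGN windows. Of the 25 members with a window, 24 were listed in no table, so these shares describe the set and not the listed genes.

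In TASOR knockout cells, 1 of the 40 members was listed, CA2, as lower. Over all genes tested 0.936% were listed as lower and 0.979% as higher, and 48.9% of the 268 listed genes were lower, so 1 member in 40 is near the background. CA2 encodes carbonic anhydrase II, a major cytosolic enzyme of the red cell that interconverts carbon dioxide and bicarbonate. It lies on chromosome 8 (85463852 to 85481493) and was at -2.95 (log2) in the authors' deposited table (SE 0.55, interval -4.34 to -1.55, p 0.00255, adjusted p 1.00). Its approximate level was 7.80 CPM in controls and 1.01 CPM in the knockout, 7.70-fold lower. The other red cell carbonic anhydrase, CA1, was not listed. No globin gene was in this table.

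In TASOR knockout cells with FLAG-TASOR, 2 of the 40 members were listed, CA2 as lower and HBE1 as higher. Of the 261 listed genes, 67.4% were lower and 32.6% higher, and the number of genes tested could not be recovered from this table. The log2 fold change of CA2 in the authors' deposited table was -1.53 (SE 0.46, interval -2.69 to -0.36, adjusted p 1.00), with approximate levels of 7.51 CPM in controls and 2.61 CPM with FLAG-TASOR. CA2 is the single member listed in more than 1 table, and the comparisons share their controls. The control level of CA2 derived from the 2 tables differed by a log2 ratio of 0.05. Its fold change with FLAG-TASOR lay closer to 0 than in the knockout by 1.42 on the log2 scale, and the 2 intervals overlap. The difference itself was not tested, since no value per library was used.

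HBE1 encodes the embryonic epsilon-globin. With FLAG-TASOR, the authors' deposited table gave it a log2 fold change of 2.24 (SE 0.57, interval 0.81 to 3.68, p 0.00967, adjusted p 1.00). It had the highest mean expression of all 261 listed genes, at 10.83 on the log2 scale, and its approximate level went from 635 to 3004 CPM, 4.73-fold higher. Per kilobase of annotated exon this was about 660 CPM in controls and 3126 CPM with FLAG-TASOR. A further 20 listed genes had a larger log2 fold change. HBE1 was in neither the knockout nor the FLAG-TASOR2 table, and none of the alpha-like genes was listed with FLAG-TASOR, so no globin gene was listed in more than 1 comparison.

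**Figure D4:**
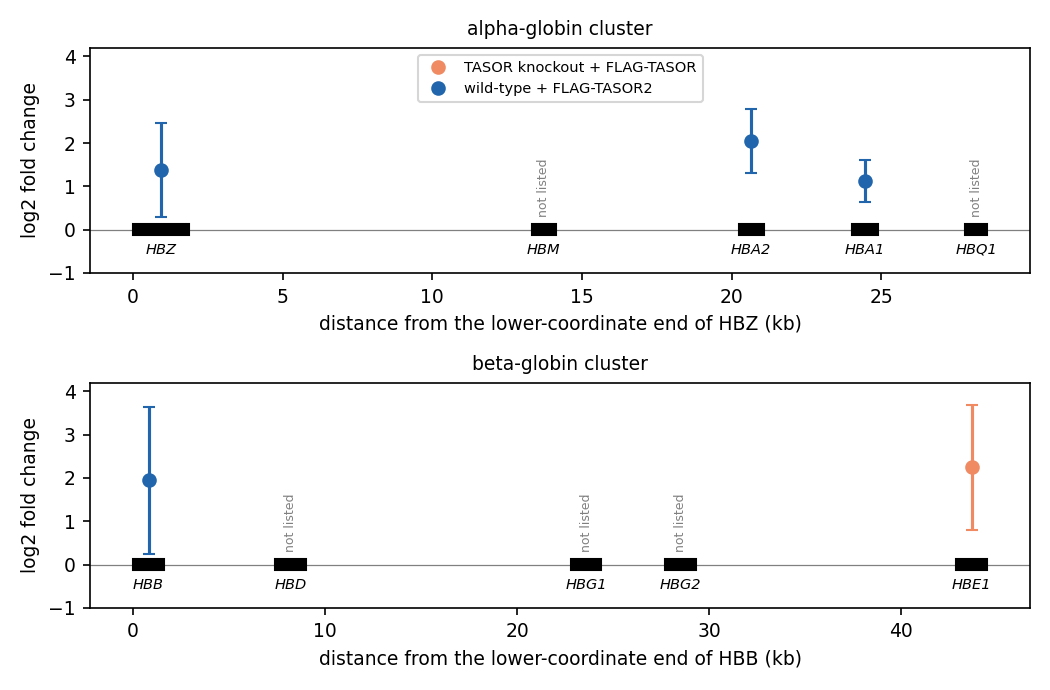
Black boxes give the position of each globin gene in its cluster (RefSeq spans, distance in kb from HBZ or HBB), and points its log2 fold change with the approximate 95% interval where it was listed. HBZ, HBA2 and HBA1 were listed with FLAG-TASOR2, and HBA1 starts 24.04 kb from HBZ. HBB and HBE1, at the 2 ends of the beta-globin cluster, were listed in different comparisons.

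Both globin clusters also bear on how single genes are read. HBZ, HBA2 and HBA1 form 1 locus, so the 6 genes listed with FLAG-TASOR2 lie in 4 loci. Other listed genes within 1 Mb of the alpha-globin cluster numbered 1, WDR90, which the authors' deposited table gave as lower, at -1.06 (SE 0.42). Near SLC4A1, FZD2 and ACBD4 were listed as lower, at -3.67 (SE 1.03) and -1.52 (SE 0.58) in the authors' deposited table, and near HEMGN, CCDC180 at -2.53 (SE 0.76). These 4 neighbours went against the direction of the member near them, but 40.5% of the 884 listed genes were higher and the rest lower. The lower coordinates of FZD2 and ACBD4 lie 309074 and 884215 bases from that of SLC4A1. Both had a low log2 mean expression, 1.04 and 1.74. In the beta-globin cluster GENCODE 29 extends HBE1 over 5268345 to 5505652, while RefSeq ends it at 5269945. HBG2 is likewise extended over 5253190 to 5505605, while RefSeq ends it at 5254781. HBB is extended to 5229395, while RefSeq ends it at 5227071, so its level per kilobase of exon depends on the gene model. In the alpha-globin cluster GENCODE 29 starts HBM at 153892, inside the span of HBZ, while RefSeq starts it at 165978. The olfactory receptor gene OR51B4 (5301014 to 5301946), on the same strand, lies inside the longer spans of both HBE1 and HBG2. Its lower coordinate is 75550 bases from that of HBB. OR51B4 was listed as higher with FLAG-TASOR2, at 1.30 in the authors' deposited table (SE 0.47, adjusted p 0.360), where HBE1 was not listed, and so shared the direction of HBB. The sources used here do not say which gene models the authors counted.

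The rest of the erythroid programme was nearly absent from the tables. The 6 members of heme and iron handling were not listed in any comparison: ALAS2 and FECH, the first and last enzymes of erythroid heme synthesis, TFRC, the transferrin receptor gene, SLC25A37, which brings iron into mitochondria, BLVRB and TSPO2. Nor were AHSP, the alpha-globin chaperone gene, EPOR, the erythropoietin receptor gene, TRIM58, TMCC2, or the surface protein genes KEL, ERMAP and ICAM4. Of 76 further genes in 3 lists (22 of heme and iron, 22 transcription factors and cofactors, 32 other red cell genes), 1 was listed in the knockout, 0 with FLAG-TASOR and 2 with FLAG-TASOR2, all as higher. These shares, 1.32% in the knockout and 2.63% with FLAG-TASOR2, are near those over all genes tested (0.979% and 2.56% listed as higher). All of the listed genes came from the 32 other red cell genes. The shares thus depend on the pooling of the lists, and the counts are small. For the knockout, the authors' deposited table gave KCNN4, the calcium-activated potassium channel of red cells, at 1.03 (SE 0.29). For FLAG-TASOR2, the authors' deposited table gave DMTN, which encodes the skeletal protein dematin, at 1.55 (SE 0.30), and MFSD2B, a sphingolipid exporter of red cells and platelets, at 1.04 (SE 0.35). None passed an adjusted p of 0.05 (0 of 3 by the authors' edgeR-type F-test, all 3 with an unadjusted p below 0.05).

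Markers of other blood lineages were listed in the same comparisons. With FLAG-TASOR2, 3 of 24 megakaryocyte and platelet genes were higher and 2 lower, beside 2.56% and 3.76% of all genes tested. Of these THBS1, which encodes thrombospondin-1, passed the test and rose, at 3.21 (log2) in the authors' deposited table (SE 0.24, adjusted p 0.0353). TUBB1 was at 1.77 (SE 0.25) and GP1BB at 1.59 (SE 0.26), while SPARC was at -1.32 (SE 0.28) and PEAR1 at -3.02 (SE 0.61), in the authors' deposited table. With FLAG-TASOR, the authors' deposited table held 1 gene of this list, again THBS1, as higher at 1.91 (SE 0.69, adjusted p 0.999), and the knockout table held 0. Of 20 myeloid genes, 3 were listed in every comparison, all as lower in the knockout and with FLAG-TASOR. The lists were chosen with earlier results of these data known, and the comparisons share their controls. The repeated listing is therefore not independent support. Of all genes tested 0.936% were listed as lower in the knockout, and with FLAG-TASOR 67.4% of the 261 listed genes were lower. MS4A3 was at -1.96 (SE 0.42) in the knockout, -2.40 (SE 0.48) with FLAG-TASOR and 2.24 (SE 0.41) with FLAG-TASOR2 in the authors' deposited tables. CLC and ITGAM were lower in all 3, at -4.33 (SE 0.96) and -4.62 (SE 0.78) with FLAG-TASOR2 in the authors' deposited table. Their log2 mean expression there was low, 1.98 and 1.59 (adjusted p 0.202 and 0.153 by the authors' edgeR-type F-test). Of 9 genes in the lymphoid list, PTPRC alone was listed, in the knockout at 1.70 (SE 0.65) in the authors' deposited table, beside 0.979% of all genes tested listed as higher there. Of 7 stem and progenitor genes 0 were listed in the 3 tables. The labels name the cells lymphoblasts. PTPRC had a log2 mean expression of 6.64 in the knockout comparison, but it is not specific to lymphoid cells. The tables list only changed genes, so the presence of the other genes of the lymphoid list could not be checked. The part that these lineage markers play in the erythroid listings was not tested, and summed levels per library are not known from the tables. In bulk RNA, a larger share of more erythroid cells and more globin RNA per cell cannot be told apart.

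**Figure D5:**
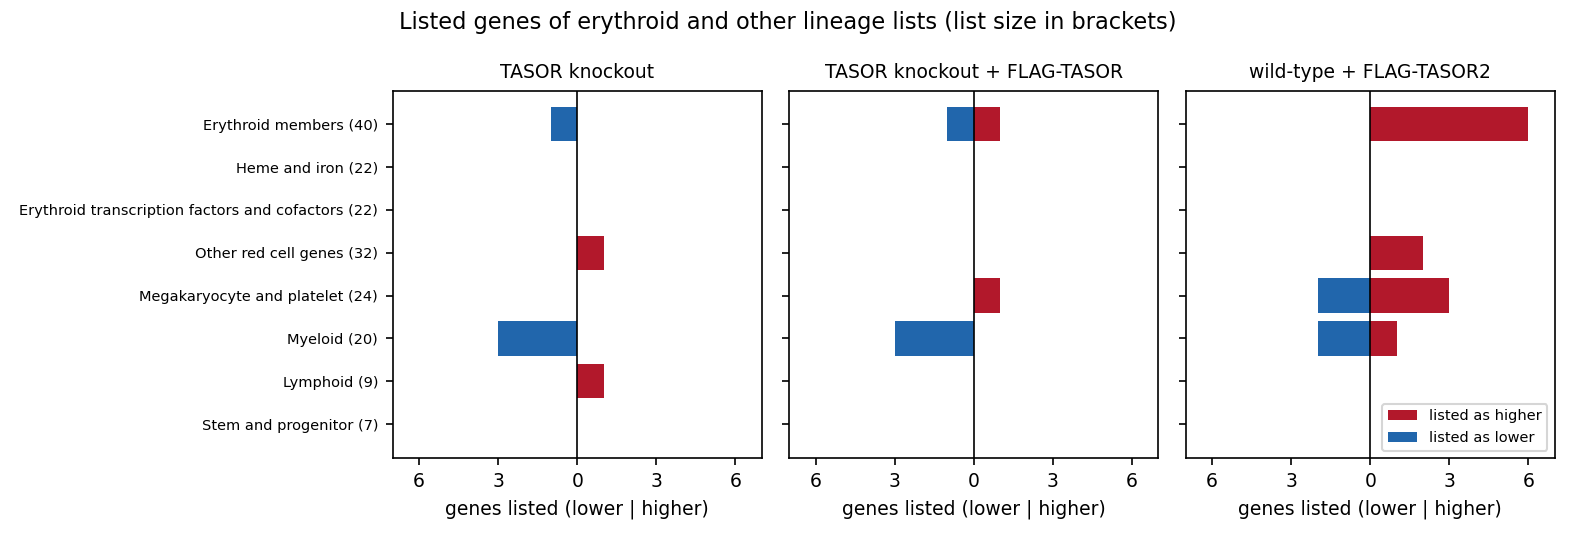
Bars give the number of genes of each list (size in brackets) listed as higher (red, to the right) or lower (blue, to the left), 1 panel per comparison. The erythroid members show 6 higher and 0 lower genes with FLAG-TASOR2, the heme and iron list and the transcription factor list 0 in each panel.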

How the data were processed

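Per the submitters' processing notes, hg38, STAR 2.7.8, Salmon, DESeq2 and edgeR were used, in roles the notes do not give. Per the file headers, each gene table deposited by the authors gives, on the log2 scale, the fold change and the mean expression in CPM. It also gives the F score of the authors' test, with its p-value before and after adjustment. Column names match edgeR's quasi-likelihood F-test, but the tool that the authors used is not stated, and the deposited values were not refitted. The thresholds in the tables were checked on the values. Members were matched by symbol and Ensembl identifier. Dividing the adjusted by the unadjusted p of the gene with the smallest p gave the number tested, except for FLAG-TASOR. The error degrees of freedom (5.36, 5.34 and 6.01) came from F and p. They exceed what 2 libraries per group can give, so the authors' error estimate drew on more than the compared libraries of a single gene. The approximate SE is the absolute log2 fold change over the square root of F, and the 95% interval uses the t distribution. Approximate group levels came from fold change and mean. For genes listed in 2 tables, the control level so derived differed by a median log2 ratio of 0.05 (58 genes), 0.11 (99) and 0.09 (59), with an SD of 0.17, 0.24 and 0.19. These formulas were run on simulated data built from the same relations. That run checks the arithmetic and cannot show that the relations hold for the authors' test. Spans and exon lengths are from GENCODE 29. SciPy 1.17.1 was used. Members and lists were chosen with earlier results of these data known. The rule for named genes took every listed member, listed genes of the fixed lists, listed neighbours within 1 Mb, TASOR and TASOR2. Alternatives were stricter thresholds and counts by locus. Tables of transposable elements were not used here.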

Additional observations from a re-analysis of the deposited data

How the results depend on the processing

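With FLAG-TASOR2, the number of listed members went from 6 to 3 with an absolute log2 fold change above 1.5 (SLC4A1, HBA2 and HBB, all higher). It was 4 with an unadjusted p below 0.01, 5 at or above the median expression of the table, 4 when members within 1 Mb were counted as 1 locus, and 5 with HBA1 and HBA2 as 1 gene, an alternative chosen after seeing the data. Each setting only removed or merged members of the same 6, all listed as higher. That the members kept were all higher was therefore fixed in advance and lends no support. Of the 3 kept above 1.5, HBB met the expression threshold only through the FLAG-TASOR2 group, by its approximate levels. The share of higher genes over the whole table was 37.2% to 41.9% under the same thresholds. With FLAG-TASOR the count went from 2 to 1 with an unadjusted p below 0.01 and to 1 at or above the median expression, in both cases HBE1. In the knockout, CA2 lay below the median expression, which left 0 members, and the count of 1 did not move otherwise. No paired analysis was possible because the tables hold no value per library, and for the same reason no replicate could be left out. Depth per library is unknown from the tables, so no detection limit can be given for the 32 members not listed.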
